A study of Mus musculus with 3 samples.

Results

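The galectin family was examined in 3 kinds of cultured mouse cell from the epicardium, which covers the heart. The genes were selected by name, as 5 galectins (Lgals1, Lgals2, Lgals3, Lgals8 and Lgals9) and the galectin ligand Lgals3bp, and the family was chosen because Lgals2 is among the largest rises of an epithelial clone against primary epicardial cells. These 6 genes were all found among the 18245 genes of the deposited table. Since Lgals2 was chosen on its own readout, its values are given as a description with no test in any comparison, and the clone against the primary cells is a description for every member.

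The labels give ventricle epicardium of C57BL/6 mice as the tissue of every kind, while the methods of the study describe digestion of the dissected heart for the primary cells. Cardiosphere-derived cells (CDC) grew out of epicardial tissue by way of floating spheres. Cloning cylinders were used to lift an epithelial clone, CDC-EpiC, out of CDC cultures that had received 10 µM SB-431542, a small-molecule inhibitor of TGF-beta type I receptor signalling, for 2 weeks. Primary epicardial cells (pEpiC) were grown directly from that digest. By the same methods, CDC and pEpiC differed in medium, serum level, dish coating and range of mouse age. These cannot be told apart from a difference of cell kind. The labels name no transgene or mutation in any kind. Each kind gave 3 libraries (n = 3 throughout). It is not known whether these are separate animals, cultures or extractions, so the p-values measure only the spread between these libraries. The CDC-EpiC libraries come from 1 clone, and the effect of SB-431542 cannot be told apart from that of picking this clone.

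Galectins are small lectins that bind beta-galactosides, the galactose-containing ends of the sugar chains on cell surface and matrix glycoproteins. They leave the cell without a signal peptide. Prototype galectins (galectin-1 and galectin-2) pair as dimers, galectin-3 is a chimera with a long tail through which it forms oligomers, and tandem-repeat galectins (galectin-8 and galectin-9) join unlike carbohydrate-binding domains in a single chain. In the heart, galectin-3 is known as a macrophage and fibrosis marker, and galectin-1 as a product of mesenchymal cells.

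The prototype genes lie close together. In GRCm38, the assembly that mm10 names, Lgals2 (NCBI gene 107753) covers chr15:78850860-78855529 on the minus strand with 4 exon blocks, and Lgals1 (NCBI gene 16852) covers chr15:78926725-78930465 on the plus strand with 5. Their starts are 71196 bases apart. Lgals3 (16854) is at chr14:47367751-47386160, plus strand, Lgals3bp (19039) at chr11:118392751-118402092, minus strand, Lgals8 (56048) at chr13:12439415-12464944, minus strand, and Lgals9 (16859) at chr11:78962974-78984946, minus strand. All are annotated as protein-coding. The 3' end of Lgals2 shares 38 exonic bases with Cdc42ep1 on the other strand, and Lgals8 shares 155 with Heatr1, so reads within those bases cannot be assigned without strand.

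The promoters of Lgals2, Lgals3bp and Lgals9 are shown because Lgals2 differed most between the kinds and the other two were examined for an interferon-response motif. Each sequence is the 250 bases before the annotated start (RefSeq, GRCm38.p6), written 5' to 3' on the strand of the gene. The Lgals2 stretch is chr15:78855530-78855779, and capitals mark a TATAA whose first base lies 28 bases before the start. A TATAA starting 20 to 40 bases before the start, on the strand of the gene, is held by 3.52% of the 32851 mouse promoter windows, and this search was added after the sequence had been seen. The Lgals3bp stretch is chr11:118401960-118402209. The Lgals9 stretch is chr11:78984925-78985174, and capitals mark a match to GAAANNGAA, a form of the core letters of interferon-response elements, on the other strand.
Lgals2: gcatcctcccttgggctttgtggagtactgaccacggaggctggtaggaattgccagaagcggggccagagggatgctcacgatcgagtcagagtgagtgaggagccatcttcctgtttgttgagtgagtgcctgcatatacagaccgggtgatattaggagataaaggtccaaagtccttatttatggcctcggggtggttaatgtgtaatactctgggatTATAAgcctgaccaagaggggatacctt
Lgals3bp: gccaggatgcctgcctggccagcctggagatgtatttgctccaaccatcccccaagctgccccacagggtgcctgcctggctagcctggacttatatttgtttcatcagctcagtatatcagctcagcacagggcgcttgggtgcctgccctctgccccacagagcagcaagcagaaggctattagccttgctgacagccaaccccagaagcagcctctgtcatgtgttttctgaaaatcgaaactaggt
Lgals9: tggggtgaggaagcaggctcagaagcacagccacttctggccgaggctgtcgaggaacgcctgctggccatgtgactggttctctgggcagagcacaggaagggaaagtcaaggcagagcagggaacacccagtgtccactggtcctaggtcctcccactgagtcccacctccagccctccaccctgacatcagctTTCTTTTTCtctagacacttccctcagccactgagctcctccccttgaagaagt
The letters GAAANNGAA were searched on both strands of windows that run from 250 bases before to 50 after the start. They were found in 8.56% of all windows and in 1 of the 5 member windows at hand, that of Lgals9, which holds 2 matches. The windows of Lgals2, Lgals3, Lgals3bp and Lgals8 hold none, which says only that these letters are not in them. Other forms of interferon-response elements were not searched and are not marked.

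The libraries were of like depth, with 22008833 to 22756045 expected counts each. The epicardial marker Upk3b, a uroplakin of mesothelial cells, was at 230 ± 8.65 CPM in CDC, 2664 ± 209 in CDC-EpiC and 69.1 ± 8.42 in pEpiC (SD). Wt1, the transcription factor of the embryonic epicardium, was at 10.1 ± 1.15, 119.7 ± 11.8 and 50.9 ± 3.90 CPM. A list of 13 macrophage markers summed to 72.6 to 74.5 CPM in CDC, 30.2 to 33.1 in CDC-EpiC and 356 to 1011 in pEpiC. Of these 13, 7 in CDC and 9 in CDC-EpiC were at 3 counts or fewer in every library, among them Ptprc, the leukocyte antigen CD45. In pEpiC none was. Lyz2, Csf1r, Cd14 and Cd68 were above that level in CDC and CDC-EpiC too. Mean Lyz2 was 37.7 CPM in CDC and 265 in pEpiC, and it held 20 to 26 counts per CDC-EpiC library. In CDC, CDC-EpiC and pEpiC, mean Csf1r was 19.6, 9.41 and 41.3 CPM, and mean Cd14 13.9, 7.69 and 13.4. Mean Cd68 was 1.96, 13.3 and 40.1 CPM, so it was higher in the clone than in CDC. Tbx18, Tcf21 and Aldh1a2, the rest of the epicardial list, were not highest in the clone as Upk3b and Wt1 were. Tbx18 was at 92.8 ± 2.95, 56.6 ± 6.56 and 48.9 ± 1.10 CPM in CDC, CDC-EpiC and pEpiC, Tcf21 at 12.3 ± 0.225, 28.0 ± 2.69 and 102 ± 6.59, and Aldh1a2 at 2.31 ± 0.129, 2.01 ± 0.361 and 19.9 ± 2.30. Of a list of 6 mesothelial genes, Upk3b, Lrrn4 and Msln were highest in the clone, but the keratins were not. In the same order, Krt19 was at 35.4 ± 6.31, 25.5 ± 3.76 and 1.21 ± 0.191 CPM. Krt8 was at 0.274 ± 0.136, 0.210 ± 0.0553 and 2.75 ± 0.147, and Krt18 at 0.152 ± 0.145, 0.179 ± 0.0891 and 2.02 ± 0.492.

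Galectin mRNA was dominated by Lgals1 in each kind. Per transcript length, Lgals1 reached 11737 ± 2080 TPM in CDC (transcripts per 1000000 transcripts, mean ± SD), 5144 ± 244 in CDC-EpiC and 2900 ± 110 in pEpiC. It was the first or second most abundant transcript of each CDC library, ranked 11 or 12 in the CDC-EpiC libraries and 25 to 30 in pEpiC. Of the summed TPM of the 6 genes it took 92.9% ± 1.88 in CDC, 81.6% ± 1.34 in CDC-EpiC and 76.9% ± 2.5 in pEpiC.

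The remainder differed in make-up between the kinds. In CDC-EpiC, Lgals2 took 8.29% ± 0.53 of the family and was the second member by TPM, against 0.0605% ± 0.0196 in CDC and 0.101% ± 0.0245 in pEpiC. In pEpiC the second member was Lgals3bp with 12.3% ± 2.79, followed by Lgals9 with 4.48% ± 0.645 and Lgals3 with 4.17% ± 1.63, which overlapped. In CDC the second member was Lgals3 with 3.57% ± 0.553. Lgals8 was low throughout, from 0.250% in CDC to 2.00% in pEpiC.

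**Figure D1:**
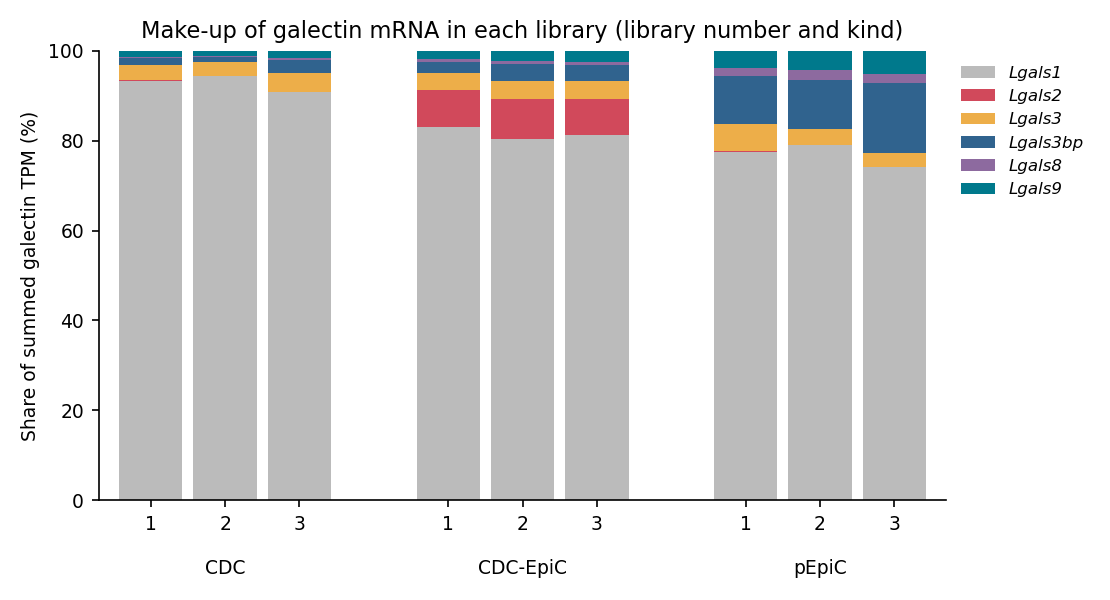
Stacked bars give the share of each gene in the summed TPM of the 6 galectin family genes (y axis, percent) in each of the 3 libraries of CDC, CDC-EpiC and pEpiC (x axis). Lgals1 fills most of every bar, Lgals2 forms a visible band of 7.84% to 8.87% in the CDC-EpiC libraries alone, and Lgals3bp forms its widest band in pEpiC.

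Lgals2, the galectin best known from the gut lining, set the clone apart from both other kinds. Levels are given from here on as CPM, counts per 1000000 counts after TMM scaling. In CDC-EpiC, Lgals2 stood at 162, 178 and 141 CPM in libraries 1, 2 and 3. In CDC it stood at 2.54, 1.95 and 2.59 CPM, from 43 to 57 counts per library. In pEpiC it stood at 1.08, 0.867 and 0.698 CPM, from 16 to 25 counts. Every clone library was thus far above every other library, and the CDC libraries all lay above those of pEpiC. The clone was 67.3-fold above CDC (6.07 on the log2 scale) and 179-fold above pEpiC (7.48), and pEpiC was lower than CDC by a log2 change of −1.45. The last value fell to −0.31 when the trend of the changes with transcript length was taken out, as described below, so the order of CDC and pEpiC rests on few reads and on this scaling. By TPM rank, Lgals2 lay between 249 and 302 in the clone, between 8415 and 9041 in CDC and between 10545 and 11081 in pEpiC.

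**Figure D2:**
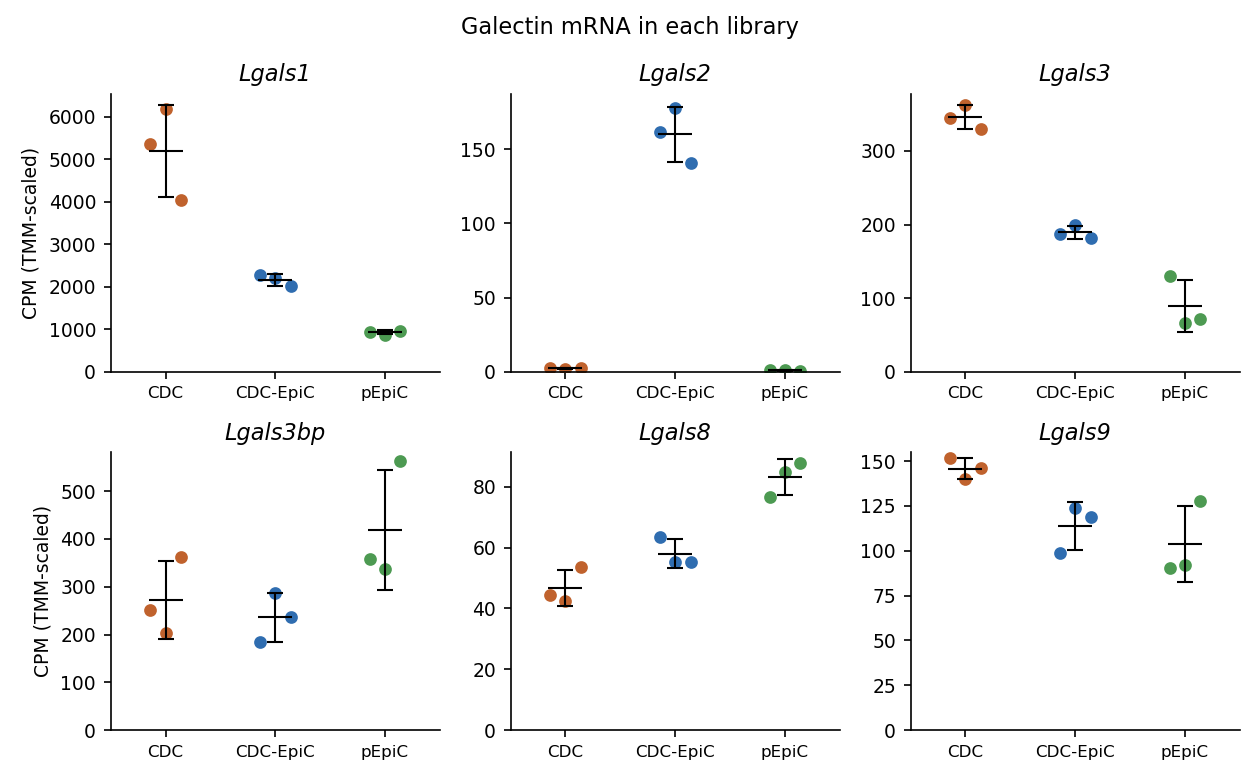
Each panel shows a galectin family gene in CPM after TMM scaling (y axis, from 0) in CDC, CDC-EpiC and pEpiC (x axis). Points are single libraries (n = 3), horizontal bars are means and error bars are SD. Lgals1 and Lgals3 step down from CDC to CDC-EpiC to pEpiC, Lgals8 steps up in the same order, and Lgals2 is high in CDC-EpiC.

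The genes whose pattern over the 9 libraries was most like that of Lgals2 were Rab3b, Prg4, Tfcp2l1, Bmp2 and Klhdc8a, out of 10194 genes compared. Likeness was the root mean square difference of centred log2(CPM + 1) values, which was 0.26 for Rab3b and 0.62 for Klhdc8a. Rab3b, a small GTPase of regulated secretion, was at 418 ± 8.80 CPM in CDC-EpiC, 9.78 ± 0.835 in CDC and 5.87 ± 0.557 in pEpiC. Prg4, which encodes the lubricating proteoglycan of joint and serosal surfaces, was at 336 ± 48.0, 11.7 ± 2.29 and 5.12 ± 0.248 CPM in the same order. Tfcp2l1, a transcription factor of ductal epithelia, was at 172 ± 4.69, 4.76 ± 0.411 and 3.16 ± 0.938 CPM. All 5 share with Lgals2 a high level in the clone, which the choice of Lgals2 fixed.

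Neighbouring genes did not share the size of the Lgals2 difference, a gap that the choice of Lgals2 for its rise in the clone favoured. Of 13 protein-coding genes listed around and between Lgals2 and Lgals1, chosen by position, 10 could be tested in CDC-EpiC against CDC, and their log2 changes ran from −0.86 to 1.69, against 6.07 for Lgals2. Card10, a scaffold of NF-kappaB signalling, rose by 1.69 (edgeR quasi-likelihood adjusted p = 6.49e-10). Cdc42ep1, an effector of the small GTPase Cdc42 whose 3' end overlaps that of Lgals2, rose by 0.93 (adjusted p = 2.01e-06), to 336 ± 57.0 CPM from 175 ± 13.1. The 3 genes that lie between Lgals2 and Lgals1 had changes of 0.20 (Gga1), 0.45 (Sh3bp1) and −0.39 (Pdxp), while Lgals1 itself fell.

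**Figure D3:**
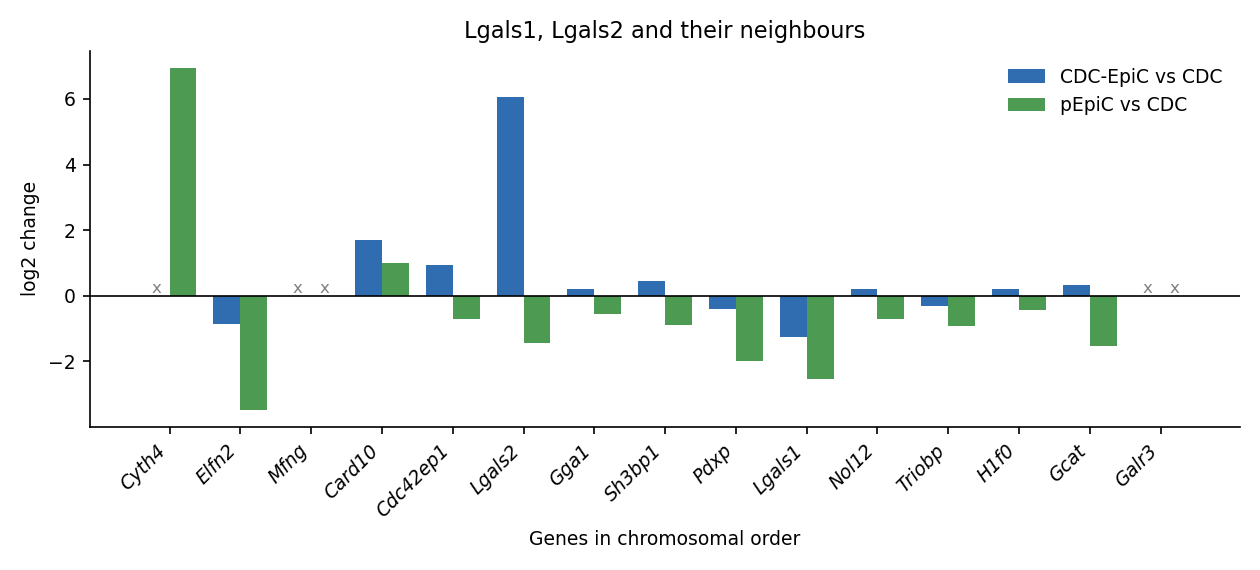
Bars show log2 changes (y axis) of Lgals2, Lgals1 and neighbouring protein-coding genes in chromosomal order (x axis), for CDC-EpiC vs CDC and for pEpiC vs CDC; crosses mark genes below the count filter. In CDC-EpiC vs CDC, Lgals2 at 6.07 stands above its neighbours, which lie between −0.86 and 1.69. Lgals2 was chosen for its rise in the clone.

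The other 5 members were tested in CDC-EpiC against CDC, which asks how the picked clone differs from the culture it came from. A gene was called at an adjusted p under 0.05. Of the 5, 4 were called, with Lgals8 higher and Lgals1, Lgals3 and Lgals9 lower, and their median log2 change was −0.37. Of all 12976 genes tested, 68.8% were called (34.2% higher and 34.6% lower) and the median log2 change was 0.0027. A count of 4 of 5 is thus near the background. In pEpiC against CDC, all 5 were called, with Lgals3bp and Lgals8 higher and the other 3 lower, at a median of −0.53. Of 13526 genes tested there, 78.3% were called (39.8% higher and 38.5% lower), with a median of 0.0196. The 2 comparisons share the CDC libraries, so their values are set side by side and no agreement is drawn from them.

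Changes in pEpiC against CDC followed transcript length. Over 10693 genes, each doubling of length went with a log2 change higher by 0.42, against 0.013 in CDC-EpiC vs CDC, and −0.41 in CDC-EpiC vs pEpiC. Changes of the members in pEpiC against CDC, and those of list genes named there, are therefore also given after a length offset, which removes this trend from every library. The source of the trend was not tested. Likeness of patterns between genes was computed without the offset, so it includes this trend.

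Lgals1, the prototype galectin of mesenchymal cells, fell most. It stood at 5358, 6191 and 4049 CPM in the CDC libraries, at 2267, 2213 and 2006 in CDC-EpiC and at 944, 873 and 962 in pEpiC. The kinds did not overlap, and CDC had the widest spread. Against CDC it was 2.42-fold lower in the clone (log2 change −1.28, SE 0.13, edgeR quasi-likelihood adjusted p = 4.91e-07). In pEpiC the log2 change was −2.53 (SE 0.14, edgeR adjusted p = 1.22e-07), and with the length offset it was −1.56 (adjusted p = 3.29e-07). The clone lay 1.21 above pEpiC on the log2 scale, and 0.31 above it with the offset. S100a13, a calcium-binding protein of the secretion of leaderless proteins, and Ldha, lactate dehydrogenase, had the patterns nearest to Lgals1, with root mean square differences of 0.13 each.

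Lgals3, the chimera galectin that is also the macrophage antigen Mac-2, fell in both comparisons as well. It stood at 345, 363 and 330 CPM in CDC and at 187, 200 and 182 in CDC-EpiC. In pEpiC, library 1 was at 131 CPM and libraries 2 and 3 at 66.0 and 71.1, so the kinds did not overlap but library 1 stood apart. The log2 change was −0.88 in the clone (SE 0.08, edgeR adjusted p = 9.5e-08). In pEpiC it was −1.99 (SE 0.22, edgeR adjusted p = 1.4e-05), or −1.47 with the length offset (adjusted p = 0.000119).

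Like Lgals3, the macrophage markers were highest in library 1 of pEpiC, but their sum and Lgals3 ranked libraries 2 and 3 differently. Each of the 13 was 2.05 to 4.20 times as high in pEpiC library 1 as in the mean of libraries 2 and 3, and their sum was 1011 CPM against 380 and 356. Lgals3 was 1.91 times as high there, while the other 5 members ranged from 0.797 to 1.38 times. Without that library, the pEpiC against CDC change of Lgals3 was −2.37 (edgeR adjusted p = 5.87e-09). The share of all genes that were higher in library 1 was not counted, so no link is drawn from these ratios. The part of the macrophage markers in the Lgals3 level was not tested. In bulk RNA, fewer cells of a type and less RNA per cell cannot be told apart. The genes nearest to Lgals3 in pattern were Cdkn2d and Bub1, both of the cell cycle, at root mean square differences of 0.16 and 0.20.

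Lgals8, a tandem-repeat galectin that marks damaged endosomes in the cytosol, went the other way. It stood at 44.4, 42.6 and 53.6 CPM in CDC, at 63.5, 55.4 and 55.1 in CDC-EpiC and at 76.7, 85.0 and 87.9 in pEpiC. The kinds did not overlap, but CDC library 3 lay just under the lowest clone library. The log2 change in the clone was 0.30 (SE 0.09, edgeR adjusted p = 0.0101), and it was no longer called without CDC-EpiC library 1 (0.22, adjusted p = 0.0657). In pEpiC it rose by 0.79 (SE 0.09, edgeR adjusted p = 1.3e-05) and by 0.83 with the length offset. Its nearest genes, Arcn1, a subunit of the COPI vesicle coat, and Tnks2, a tankyrase, differed from it by 0.034 and 0.054.

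Lgals9, the tandem-repeat galectin that is a known ligand of the T cell receptor TIM-3, was highest in CDC by CPM. It stood at 152, 140 and 146 CPM in CDC, at 98.8, 124 and 119 in CDC-EpiC and at 90.4, 92.3 and 128 in pEpiC. No clone or pEpiC library reached the CDC range in CPM, and clone and pEpiC overlapped. By TPM, CDC and pEpiC overlapped, with pEpiC library 3 at 209 above the CDC libraries at 162 to 180. It fell in the clone by 0.37 on the log2 scale (SE 0.09, edgeR adjusted p = 0.00167). In pEpiC the log2 change was −0.53 (SE 0.12, edgeR adjusted p = 0.00207), but −0.064 with the length offset (95% interval −0.33 to 0.20, adjusted p = 0.637), so this call depends on the length trend. Got1, an aspartate aminotransferase, and Tap1, the peptide transporter of antigen presentation, were nearest in pattern, at 0.099 and 0.105.

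**Figure D4:**
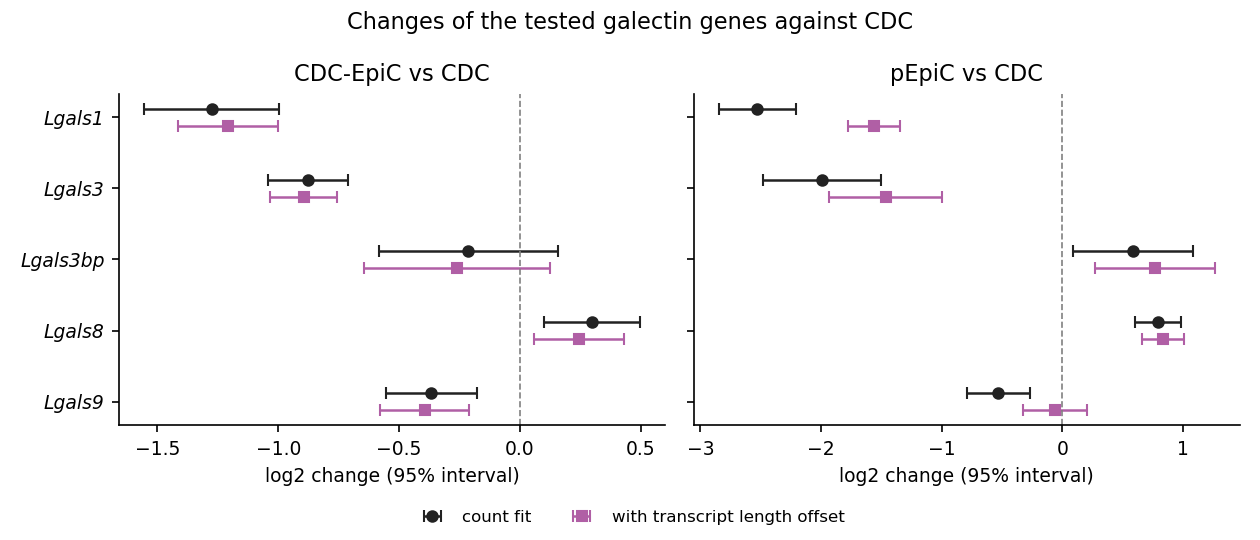
Points are log2 changes (x axis) with 95% intervals for the 5 tested members (y axis) in CDC-EpiC vs CDC and pEpiC vs CDC (n = 3 libraries a kind; circles, count fit; squares, with transcript length offset). The offset barely moves the first comparison, and in the second it shortens the change of Lgals1 from −2.53 to −1.56 and brings Lgals9 from −0.53 to −0.064.

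Lgals3bp encodes a secreted glycoprotein bound by galectin-3 and is a known interferon-inducible gene. It stood at 252, 203 and 362 CPM in CDC, at 184, 287 and 238 in CDC-EpiC and at 358, 336 and 563 in pEpiC. CDC overlapped with both other kinds, and pEpiC lay above the clone. The log2 change in the clone was −0.21 (SE 0.17, 95% interval −0.58 to 0.16, edgeR adjusted p = 0.284). Without CDC library 2 it was −0.39 and called (adjusted p = 0.0327), and without CDC library 3 it was 0.040 (adjusted p = 0.817). In pEpiC it rose by 0.59 against CDC (SE 0.22, edgeR adjusted p = 0.0326), or by 0.77 with the length offset (adjusted p = 0.0104). That call was lost without CDC library 1 (adjusted p = 0.114), CDC library 2 (0.125) or pEpiC library 3 (log2 change 0.32, adjusted p = 0.159), and in DESeq2 (0.126).

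The top library of each kind in Lgals3bp, but not always the order of the rest, was shared with the interferon response genes. A list of these (Stat2, Irf1, Irf7, Irf9, Isg15, Ifit1, Ifit3, Bst2, Usp18, Oas1a and Rsad2) summed to 400, 436 and 647 CPM in CDC, to 266, 380 and 335 in CDC-EpiC and to 464, 532 and 966 in pEpiC. The library highest in Lgals3bp was library 3 in CDC, library 2 in CDC-EpiC and library 3 in pEpiC, and it was also the highest in this sum in each kind. The lowest libraries differed in CDC and pEpiC, where Lgals3bp was lowest in library 2 and the sum in library 1. In CDC-EpiC both were lowest in library 1. Of the 11 genes, 9 in CDC, 9 in CDC-EpiC and 11 in pEpiC peaked in the library highest in Lgals3bp. The share of all genes that peaked there was not counted, so no link is drawn from these counts. Lgals9 peaked in the same library in CDC-EpiC and pEpiC but not in CDC. Ddx58, the RNA sensor RIG-I, and Tor3a, both known to be induced by interferon, were nearest to Lgals3bp in pattern, at root mean square differences of 0.15 and 0.17. The part of the interferon response in the level of Lgals3bp was not tested.

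**Figure D5:**
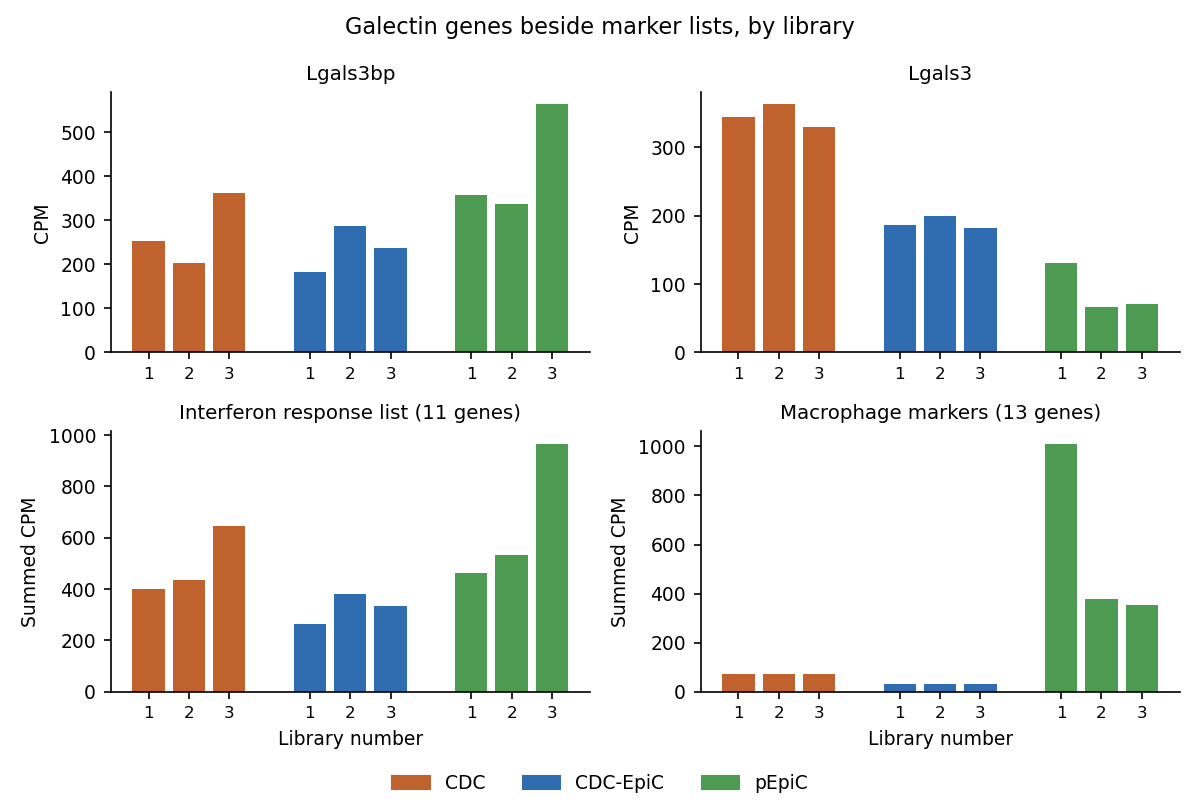
Bars give CPM after TMM scaling (y axes, from 0) in libraries 1 to 3 of CDC, CDC-EpiC and pEpiC (x axis) for Lgals3bp above the summed interferon response genes, and for Lgals3 above the summed macrophage markers. The tallest Lgals3bp bar of each kind stands over the tallest interferon bar, and pEpiC library 1 is the highest of its kind in Lgals3 and, at 1011, in macrophage markers.

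Between kinds, the interferon genes were lower in the clone and higher in pEpiC by their median. In CDC-EpiC against CDC, 8 of 11 were called, 2 higher and 6 lower, with a median log2 change of −0.49, near the 68.8% called of all genes. Ifit3, which is induced by interferon, fell by 2.12 (edgeR adjusted p = 1.71e-07), and Irf1, an interferon regulatory factor, rose by 1.05 (adjusted p = 7.16e-09). In pEpiC against CDC, 3 of 11 were called and all 3 were higher, at a median of 0.36, well under the 78.3% called of all genes. Isg15, a ubiquitin-like modifier, rose by 1.21 (edgeR adjusted p = 0.0246), or by 2.2 with the length offset (adjusted p = 0.00157). This count was 1 without CDC library 1 or CDC library 2, 5 without CDC library 3 or pEpiC library 1, and 7 with the length offset.

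In CDC-EpiC against pEpiC, the contrast used to choose the family, the members are described without a test. Lgals2 was above pEpiC by 7.48 on the log2 scale, Lgals1 by 1.21 and Lgals3 by 1.07, and none of these overlapped. With the length offset these values were 6.41, 0.31 and 0.53. Lgals3bp was at −0.84 and Lgals8 at −0.53, also without overlap, or at −1.07 and −0.63 with the offset. Lgals9 was at 0.12 with overlapping libraries, and at −0.37 with the offset. Of all 13547 genes tested in this contrast, 81.9% were called (40.3% higher and 41.5% lower in the clone).

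Apart from Lgalsl, other galectin genes added little RNA. Of 6 further members listed (Lgals4, Lgals6, Lgals7, Lgals12, Lgalsl and Grifin), 5 were in the table and 2 passed the filter. Lgals4, a tandem-repeat galectin of the gut, rose by 0.96 in the clone (edgeR adjusted p = 0.00651) and by 1.62 in pEpiC (adjusted p = 0.000265, or 1.97 with the length offset) against CDC, but from 0.578 ± 0.0282 CPM, or 12 to 13 counts per library. Lgalsl, a galectin-related protein, fell by 1.24 in the clone (adjusted p = 3.82e-09) and rose by 0.35 in pEpiC (adjusted p = 0.00101, or 0.21 with the offset), at 55.8 ± 5.23, 23.8 ± 0.849 and 73.2 ± 3.36 CPM in CDC, CDC-EpiC and pEpiC.

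Galectins bind sugars that other enzymes build, so 17 glycan enzymes were examined. Against CDC, 14 of 17 were called in the clone (5 higher, 9 lower, median log2 change −0.38) and 14 of 17 in pEpiC (6 higher, 8 lower, median −0.11). Against pEpiC, 14 of 17 were called in the clone, 7 each way. All genes were called at 68.8%, 78.3% and 81.9% in these comparisons, so the last 2 counts are near the background. With the length offset, 14 were called in pEpiC against CDC (6 higher, 8 lower). In the clone against pEpiC, 15 were called with the offset (6 higher, 9 lower). St3gal6, a sialyltransferase that caps galactose, rose by 3.73 in the clone (edgeR adjusted p = 2.38e-09) and by 3.96 in pEpiC (adjusted p = 1.2e-07, or 4.23 with the length offset), from 6 to 12 counts per CDC library. C1galt1, which makes the core of O-glycans, fell by 1.17 in the clone (adjusted p = 1.11e-08). Gcnt1, which branches that core, fell by 2.29 in pEpiC (adjusted p = 1.24e-07, or −2.58 with the offset) but rose by 1.19 in the clone (adjusted p = 1.67e-07).

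Mgat5 and St6gal1 were named for their role after their values had been seen. Mgat5 builds the N-glycan branch that binds galectins best, and it fell by 1.10 in the clone (edgeR adjusted p = 9.19e-07) and rose by 0.46 in pEpiC (adjusted p = 0.000707). With the length offset the pEpiC value of Mgat5 was −0.12 and was not called (adjusted p = 0.141), so its direction there depends on the length trend. St6gal1 adds the sialic acid that blocks galectin-1 binding, and it fell by 0.80 in the clone (adjusted p = 0.0022) and rose by 1.35 in pEpiC (adjusted p = 0.000124, or 1.12 with the offset). Levels of St6gal1 were low, at 4.93 ± 1.17, 2.84 ± 0.553 and 12.9 ± 3.10 CPM in CDC, CDC-EpiC and pEpiC.

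A list of 18 glycoproteins known to be bound by galectins was counted in the same way, beside 68.8%, 78.3% and 81.9% of all genes called in the 3 comparisons. In the clone against CDC, 13 could be tested and 11 were called, 4 higher and 7 lower, with a median log2 change of −0.58. In pEpiC against CDC, 15 of 18 were called, 12 higher and 3 lower, with a median of 0.65. With the length offset 15 were called there, 11 higher and 4 lower, with a median of 0.40. In the clone against pEpiC all 18 were called, 3 higher and 15 lower, with a median of −1.34. With the offset 17 were called there, 3 higher and 14 lower, with a median of −1.20. The shares of all genes called are those without the offset. Ptprc, Havcr2 and Spn of this list are leukocyte genes, and in pEpiC library 1, where the macrophage markers were highest, they held 355, 67 and 86 counts, against 128, 33 and 26 in library 2 and 146, 25 and 19 in library 3. Spn was also present in CDC, at 49 to 63 counts per library, where Ptprc held at most 1. It was not called in pEpiC against CDC (edgeR adjusted p = 0.339). The part of Ptprc, Havcr2 and Spn in the counts of called glycoproteins was not tested.

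Mertk, a receptor kinase for dying cells, rose by 4.56 in the clone (edgeR adjusted p = 1.89e-14). In pEpiC it rose by 2.08 (edgeR adjusted p = 6.48e-08), or by 1.83 with the length offset. Cd44, the hyaluronan receptor, fell by 2.56 in the clone (adjusted p = 2.7e-13) and by 1.34 in pEpiC (adjusted p = 1.29e-08, or −1.61 with the length offset), with 164 ± 4.14 CPM in CDC, 27.9 ± 0.292 in CDC-EpiC and 66.5 ± 0.732 in pEpiC. Pdpn, podoplanin, a mucin-like glycoprotein of mesothelium, held 6521 to 6919 counts in each pEpiC library, 5 to 8 in each CDC library and 1 to 8 in each CDC-EpiC library, a log2 change of 9.90 in pEpiC against CDC (adjusted p = 3.45e-11), or 10.2 with the offset. The clone and CDC libraries overlapped in Pdpn, and each was far below pEpiC.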

How the data were processed

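Poly(A) RNA of 9 libraries, 3 each of CDC, CDC-EpiC and pEpiC, was read as paired ends on a BGISEQ-500. The submitters' processing notes name HISAT2 2.0.4, Bowtie2 2.2.5, RSEM 1.2.12, DESeq2 1.4.5 and mm10, without their roles. The annotation and the use of strand are not given in the sources used here. The authors deposited expected counts, which are estimated reads per gene and were not whole for 30.3% of values (tolerance 0.005). Deposited FPKM and TPM values, both relative to transcript length, came from the authors too. The 9 deposited columns of means were not used. The labels list 1 sample per kind, and its 3 columns were taken as replicates, on the wording of the extraction protocol alone, which does not say how they differ.

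Expected counts were rounded and fitted in edgeR 4.0.16 (R 4.3.3), with filterByExpr (minimum count 10, total 15), TMM, glmQLFit and glmQLFTest, on the 6 libraries of each pair. P-values were adjusted by Benjamini-Hochberg over all genes tested, with a threshold of 0.05. The fit was tested on simulated data. All 6 members passed the filter in each pair. TPM served to compare genes, and CPM to compare kinds. Intervals cover the spread of libraries, and PCR reads are not independent molecules. The length offset removed a lowess trend (span 0.3) on transcript length in each library. The trend was that of log2 CPM less the mean of the gene over the 9 libraries. Length was not taken from an annotation but derived from the deposited counts and FPKM, as the median over the libraries. Alternatives were DESeq2 1.42.0, limma 3.58.1 on log2(TPM or FPKM + pseudocount), other scalings and filters, a test against a 1.5-fold change, a library-number block and each library left out. Tables and figures were made with pandas 2.3.3, NumPy 2.4.6 and, for plots, matplotlib 3.10.9 (Python 3.11.15).

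The members and lists were chosen with earlier results of these data known. Named genes were every member, of each list the largest called rise and fall against CDC, and the genes nearest in pattern (5 for Lgals2, 2 for each other member) among those with at least 10 CPM on average in 1 kind. The list of interferon genes held Mx1 and the further galectins held Lgals6, which are not analysed here, and 1 other listed gene is not reported here and was left out of the counts and sums.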

Additional observations from a re-analysis of the deposited data

How the results depend on the processing

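Of 180 values of the 5 tested members under the alternatives, 166 kept their direction and their side of the threshold, 12 lost the call, 1 gained it and 1 changed sign. The change of sign was Lgals3bp in CDC-EpiC against CDC, at 0.040 without CDC library 3, and the call gained was the same gene at −0.39 without CDC library 2. Tested against a 1.5-fold change, 2 members were called in CDC-EpiC against CDC and 3 in pEpiC against CDC, since this test asks for a larger change. It also lowered the glycan enzymes called from 14 to 8 and 5, and the interferon genes from 8 to 4 and from 3 to 1. DESeq2 called 5 interferon genes in CDC-EpiC against CDC. The calls of Lgals1 and Lgals3 held under every alternative run in both comparisons, with log2 changes of −1.43 to −1.13 and −2.69 to −1.56 for Lgals1 and −0.93 to −0.80 and −2.37 to −1.47 for Lgals3. The Lgals2 difference between CDC-EpiC and pEpiC was 6.78 on log2(FPKM + 1), 7.09 on log2(TPM + 0.1), 6.78 on log2(TPM + 1) and 6.41 with the length offset. On TPM the median of all genes shifted to 0.41 or 0.50 in pEpiC against CDC. Lgals9 was then at −0.044 and lost its call (adjusted p = 0.745 and 0.741), but lay 0.46 and 0.54 below that median. In CDC-EpiC against pEpiC, Lgals9 was at −0.25 on both TPM scales and at −0.37 with the length offset. The TPM values were 0.080 and 0.13 above the median of all genes, which the length offset value was not. Library numbers showed no pairing (correlations of deviations −0.10 to 0.16), and a replicate block left 4 and 5 members called.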
